A study of Mus musculus with 15 samples.

Results

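The 38 genes described here encode proteins of the lysosome and the transcription factors that control it, and all 38 were found by name among the 38315 genes of the normalized count table. They comprise 10 proteases (9 cathepsins and legumain), 6 membrane proteins, 10 enzymes that degrade glycans, 6 lipid enzymes, lipid carriers and cofactors, 3 subunits of the proton pump, and 3 regulators. Transcripts were measured by sequencing of total RNA from mouse bone marrow in 15 libraries. Acute myeloid leukaemia (AML) marrow gave 7 libraries, from mice of the genotype NUP98-NSD1/FLT3-ITD, in which the nucleoporin gene NUP98 is fused to the methyltransferase gene NSD1 and the receptor gene FLT3 carries an internal tandem duplication. Normal marrow came from wild-type mice, 4 libraries of whole marrow and 4 of lineage-negative marrow, which is depleted of mature blood cells by their lineage markers. All mice were kept from birth in an animal facility. Age, sex, strain, the promoter driving each transgene and the share of leukaemic cells per marrow are not given in the sources used here. Whether each library is 1 animal is not stated either, so p-values measure the spread between these libraries.

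Lysosomes are acidic organelles in which hydrolases break down proteins, glycans and lipids taken up from outside or delivered by autophagy. A vacuolar ATPase pumps protons into them, membrane glycoproteins protect the boundary, and transcription factors of the MiT/TFE family (Tfeb, Tfe3, Mitf) activate many of the genes by binding E-box sequences. Monocytes, macrophages and granulocytes are rich in lysosomes and cathepsins, and early progenitors have fewer.

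Depth, estimated from the value that 1 read has after scaling, was 20.3 to 35.1 M reads in AML, 11.4 to 17.2 M in whole marrow and 20.3 to 28.1 M in lineage-negative marrow. A floor of 3 reads corresponded to 1.96 to 4.09 normalized counts, which covers counting error only. Whole marrow differed from the other groups in 2 respects that touch these genes. Its deposited values lay lower at the median gene. Over 18941 genes tested, the median log2 difference of AML against whole marrow was 0.67, against 0.02 for lineage-negative marrow. Scaling by a trimmed mean of M values (TMM) brought the first to −0.01, so the comparisons of the 38 genes with whole marrow are given with both scalings. It also carried a low signal at genes not used in marrow, with a mean of 6.69 to 12.6 normalized counts over 1611 olfactory and vomeronasal receptor genes, against 0.351 to 0.475 in lineage-negative marrow and 0.437 to 3.55 in AML. Of the 38 genes, only Ctsk and Atp6v0d2 had group means near that level. Whole marrow replicate 1 was the lowest whole marrow library for 37 of the 38 genes, and its total was also the lowest of all.

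Neutrophil and progenitor genes separated the normal groups as their labels say. Summed levels of 7 neutrophil genes were 492 to 9412 normalized counts in lineage-negative marrow and 194911 to 447810.0 in whole marrow. Levels of 5 progenitor genes were 14094 to 18522 in lineage-negative marrow and 1145 to 2042 in whole marrow. In AML the sum of 8 monocyte genes was 80754 to 146113, and it was 18539.5 to 38694 in whole and 23736 to 38979 in lineage-negative marrow. Calls follow the rule given in the next paragraph. Of all genes, 27.3% were called higher and 11.3% lower in AML than in whole marrow (4.77% and 16% with TMM). Against lineage-negative marrow these shares were 17.7% and 12.5%. All 8 monocyte genes were called higher in AML than in each normal group with the deposited scaling (6 of 8 against whole marrow with TMM). Of 12 macrophage genes, 11 were higher in AML than in lineage-negative marrow, while 2 were higher and 3 lower than in whole marrow (0 and 3 with TMM). Their summed level was 4522 to 9795 in AML, 2537 to 6071 in whole and 521 to 1014 in lineage-negative marrow, with none at 0 throughout a group. The 7 neutrophil genes were all higher in AML than in lineage-negative marrow, with a sum of 206525 to 578392, and against whole marrow 1 was called with TMM, lower, and none with the deposited scaling. The 4 mast cell and basophil genes had sums of 105 to 1206 in AML, 1175 to 2997 in whole and 10006 to 17242 in lineage-negative marrow, and all 4 were lower in AML than in either. The 5 B cell genes and 6 erythroid genes were all lower in AML than in whole marrow with both scalings. Of the 5 B cell genes, 3 were higher in AML than in lineage-negative marrow and 0 lower, with a median log2 difference of 3.11. The 5 progenitor genes were all lower in AML than in lineage-negative marrow. With the deposited scaling the monocyte list alone was called higher throughout in both comparisons with AML, as most lysosomal genes were. Against lineage-negative marrow the macrophage and neutrophil lists rose with them, as did 3 of the 5 B cell genes. The part of these lists in the results below was not tested. In bulk RNA, more cells of a type and more RNA per cell cannot be told apart.

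Lineage-negative marrow set normal marrow depleted by lineage markers beside the leukaemia. Genes counted as called had an adjusted p under 0.05 (limma, Benjamini-Hochberg) and a log2 difference of 1 or more in size. Of the 38 lysosomal genes, 24 were called higher in AML and 0 lower, where 17.7% of all genes tested were called higher and 12.5% lower. Their median log2 difference was 1.28, and that of all genes 0.02. TMM scaling gave the same 24 genes (all genes, 17.5%) and 0 lower (all genes, 12.5%). In 26 of the 38, every AML library lay above every lineage-negative library (all genes, 17%), and in 2, below (all genes, 17.6%). None was called lower by limma, although Gaa and Glb1 were lower at an adjusted p under 0.05 and a smaller difference, the 2 genes with a lower value at an unadjusted p under 0.05. Ctss, Lgmn, Psap and Ctsh had the largest differences among the genes well above the floor.

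Against whole marrow, 29 of the 38 were called higher and 0 lower with the deposited scaling, where 27.3% of all genes were called higher and 11.3% lower. Only Ctsk was lower at an unadjusted p under 0.05 in that limma fit. With TMM, 11 were called higher (all genes, 4.77%) and 2 lower (all genes, 16%). The median log2 difference was 1.44 against 0.67 for all genes with the deposited scaling, and 0.74 against −0.01 with TMM. The 11 genes called higher with both scalings were Ctsa, Ctsc, Ctsh, Ctss, Ctsz, Gaa, Fuca1, Sgsh, Npc2, Psap and Grn. In 32 of the 38 every AML library lay above every whole marrow library with the deposited scaling (all genes, 35.8%), and in 0 below (all genes, 7.88%). With TMM, 21 of the 38 had every AML library above every whole marrow library (all genes, 11.1%) and 2 below (all genes, 14.9%), the called genes Cd63 and Ctsk.

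The share of each library held by these genes does not depend on the scaling. Together the 38 genes took 0.827% to 1.28% of all normalized counts in AML, 0.468% to 0.553% in whole marrow and 0.339% to 0.378% in lineage-negative marrow, with no overlap between the groups. Psap was 31.7% to 42.6% of that sum in AML, 24.6% to 27.4% in whole and 14.8% to 23.0% in lineage-negative marrow. Without Psap the shares were 0.487% to 0.734%, 0.352% to 0.401% and 0.287% to 0.314%, and the order of the groups was the same. In whole marrow, 6 erythroid genes alone took 5.21% to 7.60% of the counts, while the share in AML was 0.00100% to 0.0764%, and lineage-negative marrow had 0.0245% to 0.147%.

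**Figure D1:**
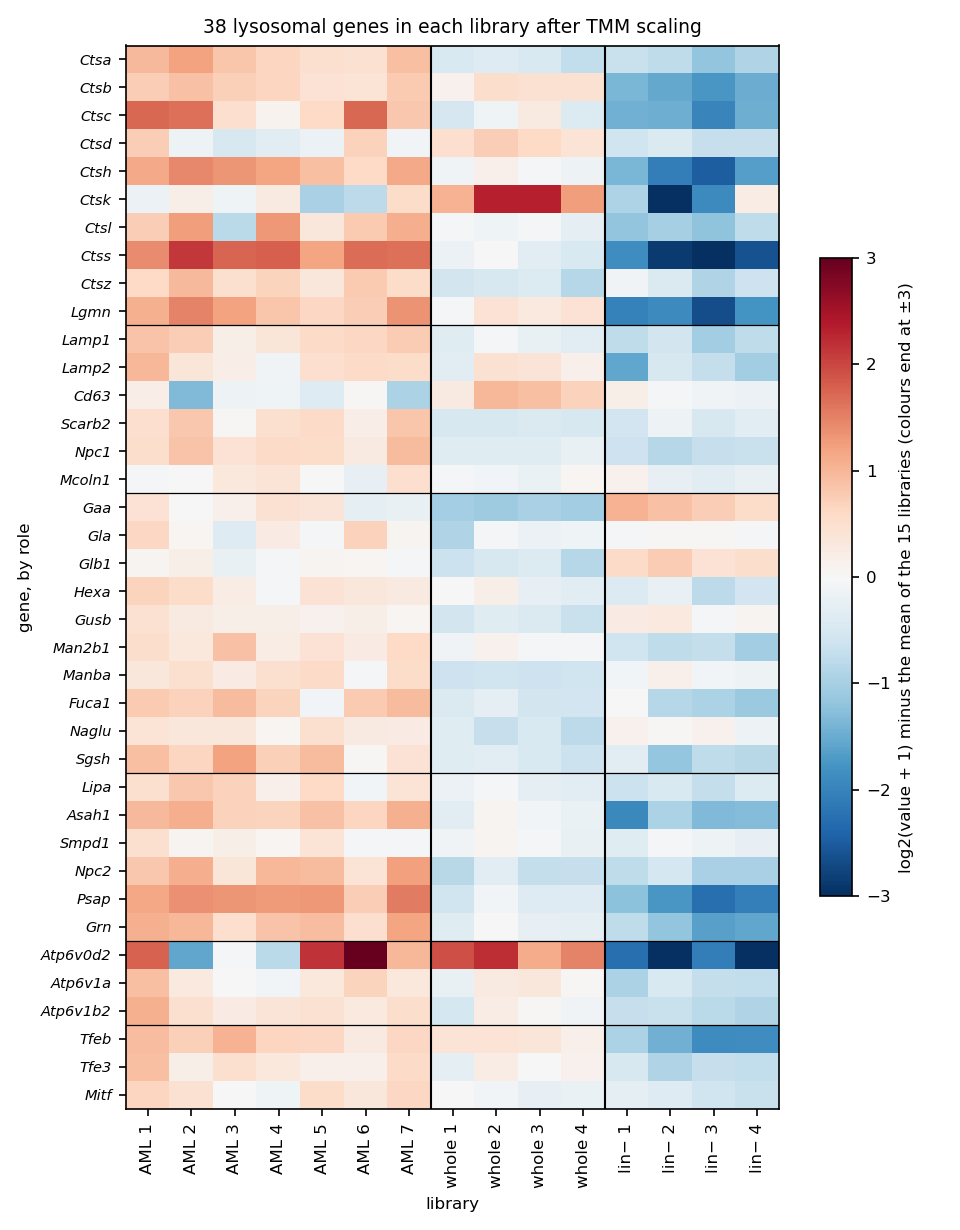
Each row is 1 of the 38 genes, ordered by role with lines between the roles, and each column is 1 library. Colour gives log2(value + 1) after TMM scaling minus the mean of the 15 libraries. Most rows are red in the 7 AML columns and blue in the 4 lineage-negative (lin−) columns, while Gaa and Glb1 are red in lineage-negative marrow and Ctsk and Cd63 in whole marrow.

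The 3 MiT/TFE regulators differed in how far they separated the groups. Tfeb (ENSMUSG00000023990, chromosome 17, 48047955 to 48103344), the family member best known as the master activator of lysosomal genes, had 819 to 1422 with a median of 1163 normalized counts in AML. It had 393, 678, 636 and 554 in whole marrow replicates 1 to 4, and 358, 268, 190.4 and 194 in lineage-negative replicates 1 to 4. The 3 groups did not overlap with the deposited scaling, and AML overlapped whole marrow with TMM. Tfeb was 4.70-fold higher in AML than in lineage-negative marrow, a log2 difference of 2.23 (SE 0.21, adjusted p = 4.9e-08). Against whole marrow the difference was 1.06 (SE 0.21, adjusted p = 0.000296) with the deposited scaling and 0.36 (SE 0.17, adjusted p = 0.107) with TMM, which was not called. Lineage-negative minus whole marrow gave −1.18, and −1.87 with TMM, both called.

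Tfe3 had 1045 to 1909 normalized counts in AML (median 1192). The normal libraries held 340.2, 835, 694 and 756 in whole marrow and 693, 543, 615 and 595 in lineage-negative marrow. Tfe3, a close relative that binds the same sites, was above all normal libraries in each AML library as deposited, and overlapped whole marrow with TMM. Its log2 difference was 1.09 (SE 0.22, adjusted p = 0.000443) against lineage-negative marrow and 1.06 (SE 0.22, adjusted p = 0.000433) against whole marrow. With TMM the latter was 0.37 (SE 0.15, adjusted p = 0.0567). Without AML replicate 1 both fell under the threshold, to 0.997 and 0.97, and without whole marrow replicate 1 the difference from whole marrow was 0.77. For Tfeb that library likewise took the call, at 0.89. Mitf had 214 to 388 normalized counts in AML (median 327). For Mitf the normal libraries gave 99.6, 163, 141 and 146 in whole marrow and 192, 185, 159 and 151 in lineage-negative marrow. Mitf, the factor known from melanocytes, osteoclasts and mast cells, was also above all normal libraries in each AML library as deposited, and overlapped whole marrow with TMM. Its log2 difference was 0.84 (SE 0.21, adjusted p = 0.00311) against lineage-negative marrow, under the threshold, and 1.17 against whole marrow (0.49 with TMM, adjusted p = 0.0275). The ratio of Tfeb to Tfe3 within a library, which no scaling alters, was 0.739 to 1.07 in AML and 0.733 to 1.16 in whole marrow, which overlapped. In lineage-negative marrow it was 0.309 to 0.516, below every AML and every whole marrow library.

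Because these regulators bind E-boxes, the promoters of the 38 genes were searched for their core word. Windows of 300 bases, 250 before to 50 after an annotated start (RefSeq, GRCm38.p6), were at hand for 32 of the 38 genes (all but Asah1, Atp6v0d2, Atp6v1b2, Ctsb, Ctsh and Npc1), 40 windows in all. CACGTG, which reads the same on both strands, was in at least 1 window of 12 of the 32 genes (37.5%) and of 8.09% of 27025 genes. The longer TCACGTGA, which contains it, was in 5 of 32 (15.6%) and in 1.12% of all genes. TCATGTGA or its reverse complement TCACATGA was in 3 of 32 and in 1.15% of all genes. CACGTG with a T before it on either strand was in 11 of 32 (34.4%) and in 4.29% of all genes. The longest word searched, TCACGTGA with a G before and a C after it, was in 0 of 32 and in 0.37% of all genes. A word that rare can be absent from 32 genes by chance alone. The stretches below are upstream of the start, 5′ to 3′ on the gene's strand, with each CACGTG in capitals. They are shown for Lamp1, which held 4 copies, Mcoln1, which held 2, 3 genes called higher in AML than in lineage-negative marrow (Ctsa, Lgmn, Sgsh) and 3 that were not (Ctsd, Gaa, Glb1). Ctsd also held 2 upstream copies, at −245 to −240 and −98 to −93, and only the copy nearer the start is shown. Ctsa held another copy after the start, at 6 to 11, which is not shown. Gla held 2 upstream copies and is not shown.
Lamp1: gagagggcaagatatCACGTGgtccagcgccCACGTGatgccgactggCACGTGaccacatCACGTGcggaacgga
Mcoln1: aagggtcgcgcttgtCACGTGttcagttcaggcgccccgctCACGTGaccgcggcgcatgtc
Ctsa: caatgagcaaactgtCACGTGatgcag
Lgmn: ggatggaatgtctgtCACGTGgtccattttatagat
Sgsh: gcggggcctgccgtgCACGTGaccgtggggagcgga
Ctsd: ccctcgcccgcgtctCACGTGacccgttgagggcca
Gaa: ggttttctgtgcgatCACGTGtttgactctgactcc
Glb1: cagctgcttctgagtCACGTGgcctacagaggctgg
They lie at chr8:13159085-13159160 (plus strand), chr8:3500433-3500494 (plus), chr2:164833746-164833772 (plus), chr12:102439121-102439156 (minus), chr11:119355519-119355554 (minus), chr7:142387905-142387940 (minus), chr11:119267808-119267843 (plus) and chr9:114401015-114401050 (plus) of GRCm38.p6. Of the 12 genes with CACGTG, 6 were called higher in AML than in lineage-negative marrow (all genes, 17.7%), with a median log2 difference of 0.85. Of the 20 without it, 12 were called, with a median of 1.19. Against whole marrow the medians were 1.48 and 1.37 with the deposited scaling, and 9 of 12 and 16 of 20 were called (all genes, 27.3%). With TMM the medians were 0.79 and 0.68, and 3 of 12 and 7 of 20 were called (all genes, 4.77%). A match is a word in a window, and binding was not measured.

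Of the 10 proteases, 8 rose in AML against lineage-negative marrow (all genes, 17.7%), with a median log2 difference of 1.95 over the 10. Against whole marrow 7 were called higher as deposited (all genes, 27.3%) and 5 with TMM (all genes, 4.77%). Ctss (ENSMUSG00000038642, chromosome 3, 95434097 to 95463714), cathepsin S, a cysteine protease that trims the invariant chain of MHC class II, had 13167 to 24115 with a median of 17459 normalized counts in AML. Whole marrow replicates 1 to 4 had 2036, 4003, 3105 and 2827, and lineage-negative replicates 1 to 4 had 1478, 765, 554 and 899. The lowest AML library lay above the highest library of either normal group. The log2 difference from lineage-negative marrow was 4.32 (SE 0.24, adjusted p = 7.66e-11). Against whole marrow the difference was 2.58 (SE 0.24, adjusted p = 1.74e-07), and 1.88 (SE 0.22, adjusted p = 3.92e-06) with TMM. It was the protease with the largest difference in both comparisons.

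Lgmn (ENSMUSG00000021190, chromosome 12, 102360343 to 102406072), legumain, cuts after asparagine and processes other cathepsins. It had 975 to 1716 with a median of 1323 normalized counts in AML, 244, 588, 519 and 574 in whole marrow and 146, 164, 95.2 and 174 in lineage-negative marrow, 3 ranges that did not overlap. Lgmn was 8.86-fold higher in AML than in lineage-negative marrow, a log2 difference of 3.15 (SE 0.25, adjusted p = 4.63e-09). Against whole marrow it differed by 1.47, and by 0.78 (SE 0.19, adjusted p = 0.00369) with TMM, under the threshold. Ctsh had 4230.1 to 8033 normalized counts in AML (median 6610.1). Its normal values were 1147, 2373, 1988 and 1861 in whole marrow and 1112, 716, 536 and 938 in lineage-negative marrow. Ctsh, an aminopeptidase, was 7.96-fold higher in AML than in lineage-negative marrow, a log2 difference of 2.99 (SE 0.23, adjusted p = 2.67e-09). It was also higher than in whole marrow, by 1.83 (SE 0.23, adjusted p = 3.56e-06) and by 1.14 with TMM, with no overlap under either scaling.

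Ctsc had 4115 to 13269 normalized counts in AML (median 6919). Against that stood 1139.8, 2587, 3308 and 2077 in whole marrow and 1406, 1437, 998 and 1404 in lineage-negative marrow. Ctsc, or dipeptidyl peptidase I, activates the serine proteases of granulocytes. Its AML libraries fell into a higher and a lower set, with replicates 1, 2 and 6 at 13269, 12368 and 12240.0 and the other 4 between 4115 and 6919. The log2 difference was 2.60 (SE 0.32, adjusted p = 1.57e-06) against lineage-negative marrow and 1.90 (SE 0.32, adjusted p = 6.42e-05) against whole marrow, or 1.20 (SE 0.29, adjusted p = 0.0031) with TMM, where the groups overlapped. Ctsb had 9923 to 14471 normalized counts in AML (median 12475). The normal libraries held 3587, 8243, 7504 and 7599 in whole marrow and 2979, 2763, 2356 and 2812 in lineage-negative marrow. Ctsb, an abundant endopeptidase, rose against lineage-negative marrow by 2.19 (SE 0.21, adjusted p = 7.07e-08). Against whole marrow its difference was 0.96, just under the threshold and over it without AML replicate 6 or whole marrow replicate 2, 3 or 4, at up to 1.08. With TMM it was 0.26 (SE 0.12, adjusted p = 0.108).

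Ctsa had 4679 to 8276 normalized counts in AML (median 6179). Its normal values were 1081, 1949.7, 1813 and 1497 in whole marrow and 2205, 2142, 1567 and 1907 in lineage-negative marrow. Ctsa, a carboxypeptidase that also shields beta-galactosidase and neuraminidase, did not overlap the normal groups. Its log2 difference was 1.67 (SE 0.20, adjusted p = 9.37e-07) against lineage-negative marrow, 2.00 (SE 0.20, adjusted p = 3.24e-07) against whole marrow and 1.30 against the latter with TMM. Ctsz had 6009 to 8863 normalized counts in AML (median 6934). For Ctsz the normal libraries gave 1265, 2295, 2343 and 1749 in whole marrow and 4046, 3406, 2396 and 2903 in lineage-negative marrow. Ctsz, a carboxypeptidase, was higher than in lineage-negative marrow by 1.15 (SE 0.20, adjusted p = 7.9e-05) and than in whole marrow by 1.90 (SE 0.20, adjusted p = 5.75e-07), or 1.21 with TMM. Lineage-negative minus whole marrow gave 0.75 for Ctsz, and 0.06 with TMM, neither called. Ctsl had 377 to 1649 normalized counts in AML (median 1189.8). Against that stood 275, 452, 465 and 392 in whole marrow and 296, 349.9, 296 and 402 in lineage-negative marrow. Ctsl, an endopeptidase, was within the normal ranges in AML replicate 3 and above them in the other 6. Its difference was 1.71 (SE 0.31, adjusted p = 0.000126) against lineage-negative marrow and 1.49 against whole marrow, or 0.80 (SE 0.29, adjusted p = 0.0399) with TMM, not called.

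Ctsd and Ctsk departed from the other proteases. Ctsd, the main aspartic protease of lysosomes, had 5431 to 13395 with a median of 7264 normalized counts in AML, 4597, 9291, 8168 and 7257 in whole marrow and 5039, 5878, 4848 and 4798 in lineage-negative marrow. Its ranges in AML and whole marrow overlapped, with a log2 difference of 0.16 (95% interval −0.36 to 0.68), or −0.53 (−0.96 to −0.10) with TMM. Against lineage-negative marrow it differed by 0.63 (SE 0.25, adjusted p = 0.044), under the threshold. Within a library, the ratio of Ctss to Ctsd was 1.14 to 3.42 in AML, 0.380 to 0.443 in whole marrow and 0.114 to 0.293 in lineage-negative marrow. These ranges did not overlap, and no scaling touches them. The gene Gm49369 shares 6757 bases and the strand with Ctsd and reached 1022 normalized counts in 1 lineage-negative library, so reads of this pair may not be fully separated.

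Ctsk, the collagen-degrading cathepsin of osteoclasts, was near the floor: 4.72 to 15.1 with a median of 8.91 normalized counts in AML, 8.98, 38.9, 37.6 and 17.7 in whole marrow, and 4.54, 0, 1.76 and 11.7 in lineage-negative marrow. AML minus whole marrow was −1.90 (SE 0.55, adjusted p = 0.0115) with TMM, called lower, and −1.25 (SE 0.58, adjusted p = 0.0656) with the deposited scaling, not called. Without whole marrow replicate 1, or lineage-negative replicate 2 or 4, which share the error estimate, it was called there too, at −1.66 in the first case. A replicate block rests the comparison on AML replicates 1 to 4, since only AML had replicates 5 to 7. With TMM and that block the difference from whole marrow was −1.71 (adjusted p = 0.065), not called, and with quantile normalization −1.18 (adjusted p = 0.129). AML minus lineage-negative marrow was 1.38 (SE 0.58, adjusted p = 0.0596), not called, but called at 1.496 to 1.97 without AML replicate 5 or 6 or lineage-negative replicate 4. After the mean of the receptor genes was subtracted from each library, the deposited difference was −0.38 (adjusted p = 0.693), and lineage-negative minus whole marrow went from −2.63 to −1.58 (adjusted p = 0.149), no longer called. Among 6 osteoclast markers, Calcr was at 0 in every AML and lineage-negative library and at 0 to 6.28 in whole marrow. Oscar was at or under the floor in every AML and whole marrow library. Nfatc1 of that list had 1301 to 2272 normalized counts in AML, 469 to 1031 in whole and 668 to 1145 in lineage-negative marrow. Acp5 of that list had 114 to 378 in AML, 255 to 584 in whole and 111 to 270 in lineage-negative marrow. Of the 3 markers tested, 2 were called higher in AML than in whole and in lineage-negative marrow as deposited (all genes, 27.3% and 17.7%). With TMM, 0 were higher and 1, Acp5 at −1.61, lower than in whole marrow (all genes, 4.77% and 16%).

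**Figure D2:**
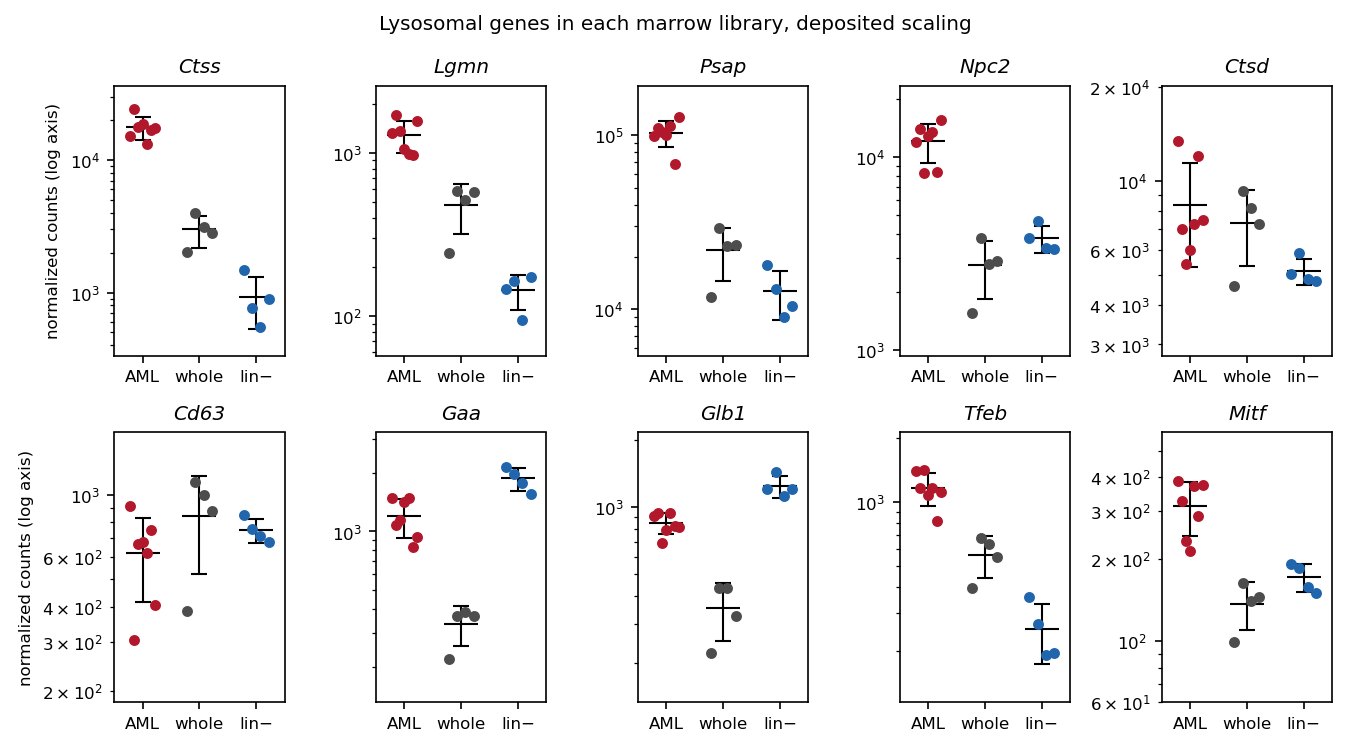
Each panel shows 1 gene in normalized counts with the deposited scaling on a log axis, with 1 point per library (7 AML, 4 whole, 4 lineage-negative or lin−) and the mean with SD in black. Ctss and Lgmn step down from AML through whole to lineage-negative marrow, all 7 AML points of Npc2 and Psap lie above the normal ones, Ctsd and Cd63 overlap between AML and whole marrow, and Gaa and Glb1 are highest in lineage-negative marrow.

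Of the 6 membrane proteins, 3 rose in AML against lineage-negative marrow (all genes, 17.7%), namely Lamp1, Lamp2 and Npc1. Against whole marrow 3 were called higher as deposited (all genes, 27.3%) and 0 with TMM (all genes, 4.77%). Lamp1 and Lamp2 are the glycoproteins that line the lysosomal membrane. Lamp1 had 9594 to 16316 normalized counts in AML (median 13805). The normal libraries held 2831, 5997, 5247 and 4878 in whole marrow and 5044, 6029, 4257 and 5158 in lineage-negative marrow. Lamp1 was above all normal libraries in each AML library. It differed by 1.36 (SE 0.21, adjusted p = 3.19e-05) from lineage-negative marrow and by 1.52 (SE 0.21, adjusted p = 1.27e-05) from whole marrow, or 0.83 with TMM (adjusted p = 0.000164), under the threshold. Lamp2 had 4616 to 10542 normalized counts in AML (median 7197). Its normal values were 1708, 5007, 4632 and 3976 in whole marrow and 1686, 3716, 3101 and 2458 in lineage-negative marrow. The difference of Lamp2 was 1.39 (SE 0.28, adjusted p = 0.000458) against lineage-negative marrow, and 0.96 against whole marrow, where the ranges overlapped. The latter was called without AML replicate 3 or 4 or whole marrow replicate 2, 3 or 4, at up to 1.13, but was 0.27 with TMM. Npc1 had 1495 to 2582 normalized counts in AML (median 1945). For Npc1 the normal libraries gave 425, 734, 711 and 788 in whole marrow and 835, 735, 807 and 822 in lineage-negative marrow. Npc1, which exports cholesterol from the lysosome, was higher than in lineage-negative marrow by 1.31 (SE 0.19, adjusted p = 1.08e-05) and than in whole marrow by 1.61 (SE 0.19, adjusted p = 1.91e-06), the latter 0.92 with TMM.

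Scarb2, the receptor that carries glucocerebrosidase to lysosomes, averaged 3414 ± 737 (SD, n = 7), 1086 ± 252 (SD, n = 4) and 1835 ± 267 (SD, n = 4) normalized counts in the AML, whole marrow and lineage-negative libraries. Its difference from lineage-negative marrow was 0.88 (SE 0.20, adjusted p = 0.00139), under the threshold, with every AML library above. Against whole marrow it was 1.66, called as deposited, and 0.96 with TMM. The calcium channel gene Mcoln1, whose promoter held 2 copies of CACGTG, differed little: 0.30 (95% interval −0.12 to 0.71) against lineage-negative marrow, and 0.88 against whole marrow (0.19, −0.13 to 0.51, with TMM). Cd63, a tetraspanin of late endosomes and granules, had 304 to 909.7 with a median of 668 normalized counts in AML, 387, 1110.4, 1002 and 874 in whole marrow and 847, 756, 713 and 679 in lineage-negative marrow. AML replicates 2 and 7 were lowest, at 304 and 405. With TMM the difference of AML from whole marrow was −1.11 (SE 0.24, adjusted p = 0.0015), with no overlap, and with the deposited scaling −0.42 (SE 0.29, adjusted p = 0.211). The ratio of Lamp1 to Cd63 was 14.4 to 47.7 in AML and 5.24 to 7.32 in whole marrow, ranges that did not overlap and that no scaling alters.

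The 10 glycan-degrading enzymes were called in different numbers against each normal group. All 10 were called higher in AML than in whole marrow with the deposited scaling (all genes, 27.3%), and with TMM 3 were, Gaa, Fuca1 and Sgsh (all genes, 4.77%). Against lineage-negative marrow 3 rose, Sgsh, Fuca1 and Man2b1 (all genes, 17.7%), and the median log2 difference of the 10 was 0.34, against 1.95 for the proteases. In the normal groups, 6 of the 10 were called higher in lineage-negative than in whole marrow with the deposited scaling (all genes, 33.1%), and 2 with TMM (all genes, 11.2%). Of those 6, Gla was no longer called without whole marrow replicate 1, at 0.62, or without lineage-negative replicate 2 or 3.

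Gaa (ENSMUSG00000025579, chromosome 11, 119158713 to 119176280), the acid glucosidase that degrades glycogen, had 830.5 to 1495 with a median of 1146 normalized counts in AML. Whole marrow had 218, 367, 382 and 364, and lineage-negative marrow 2165, 1992, 1788 and 1570.2. The order was thus lineage-negative, AML, whole, with no overlap between any pair of groups. Gaa was 5.73-fold higher in lineage-negative than in whole marrow, a log2 difference of 2.52 (SE 0.23, adjusted p = 7.82e-08), or 1.83 with TMM. AML exceeded whole marrow by 1.85 (SE 0.20, adjusted p = 1.08e-06), or 1.16 with TMM, and its difference from lineage-negative marrow was −0.67 (SE 0.20, adjusted p = 0.0105). Glb1, the beta-galactosidase, showed the same order. Its means were 846 ± 91.7 (SD, n = 7), 353 ± 102 (SD, n = 4) and 1242 ± 139.9 (SD, n = 4) normalized counts in AML, whole and lineage-negative marrow. The difference was −0.55 (SE 0.18, adjusted p = 0.0186) against lineage-negative marrow, with every AML library below, and 1.30 (SE 0.18, adjusted p = 1.3e-05) against whole marrow, or 0.61 with TMM. Between the normal groups Glb1 was higher in lineage-negative marrow by 1.86, or 1.17 with TMM. Tmppe lies within the body of Glb1 on the same strand, so reads of that pair may not be fully separated.

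Sgsh had 592 to 1355 normalized counts in AML (median 962). Against that stood 195, 345, 305 and 273 in whole marrow and 473, 277, 355 and 343 in lineage-negative marrow. Sgsh, the sulfamidase of heparan sulfate, rose against lineage-negative marrow by 1.47 (SE 0.23, adjusted p = 2.53e-05) and against whole marrow by 1.84 (SE 0.23, adjusted p = 3.31e-06), the latter 1.15 with TMM. Fuca1 had 1543 to 2999.8 normalized counts in AML (median 2517). The normal libraries held 472, 919, 735 and 719 in whole marrow and 1482, 857, 800.3 and 710.1 in lineage-negative marrow. Fuca1, a fucosidase, was lowest among AML libraries in replicate 5. The difference from lineage-negative marrow was 1.41 (SE 0.23, adjusted p = 3.75e-05), and that from whole marrow 1.83 (SE 0.23, adjusted p = 3.46e-06), or 1.13 with TMM. Man2b1 had 8635 to 13597 normalized counts in AML (median 10979). Its normal values were 2984, 6054, 5161 and 5159 in whole marrow and 4992, 4609, 4654 and 3726 in lineage-negative marrow. Man2b1, an alpha-mannosidase, was higher by 1.24 (SE 0.20, adjusted p = 5.19e-05) than in lineage-negative marrow. Against whole marrow the difference was 1.17, or 0.48 with TMM, and 0.95 without whole marrow replicate 1, where the call was lost.

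The other 5 enzymes were not called against lineage-negative marrow. Hexa, the alpha subunit of hexosaminidase, differed by 0.85 (SE 0.20, adjusted p = 0.00139) with no overlap, under the threshold. Manba, a beta-mannosidase, differed by 0.42 (95% interval 0.04 to 0.81), and Naglu, which acts on heparan sulfate, by 0.27 (−0.09 to 0.63). For Gla, the alpha-galactosidase, the value was 0.18 (−0.39 to 0.75), and for Gusb, the beta-glucuronidase, 0.06 (−0.31 to 0.43). These 4 intervals leave out a 2-fold difference in either direction. Against whole marrow the 5 differed by 1.14 to 1.67 with the deposited scaling and by 0.45 to 0.98 with TMM. The calls of Gla and Hexa were lost without whole marrow replicate 1, at 0.80 and 0.99.

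**Figure D3:**
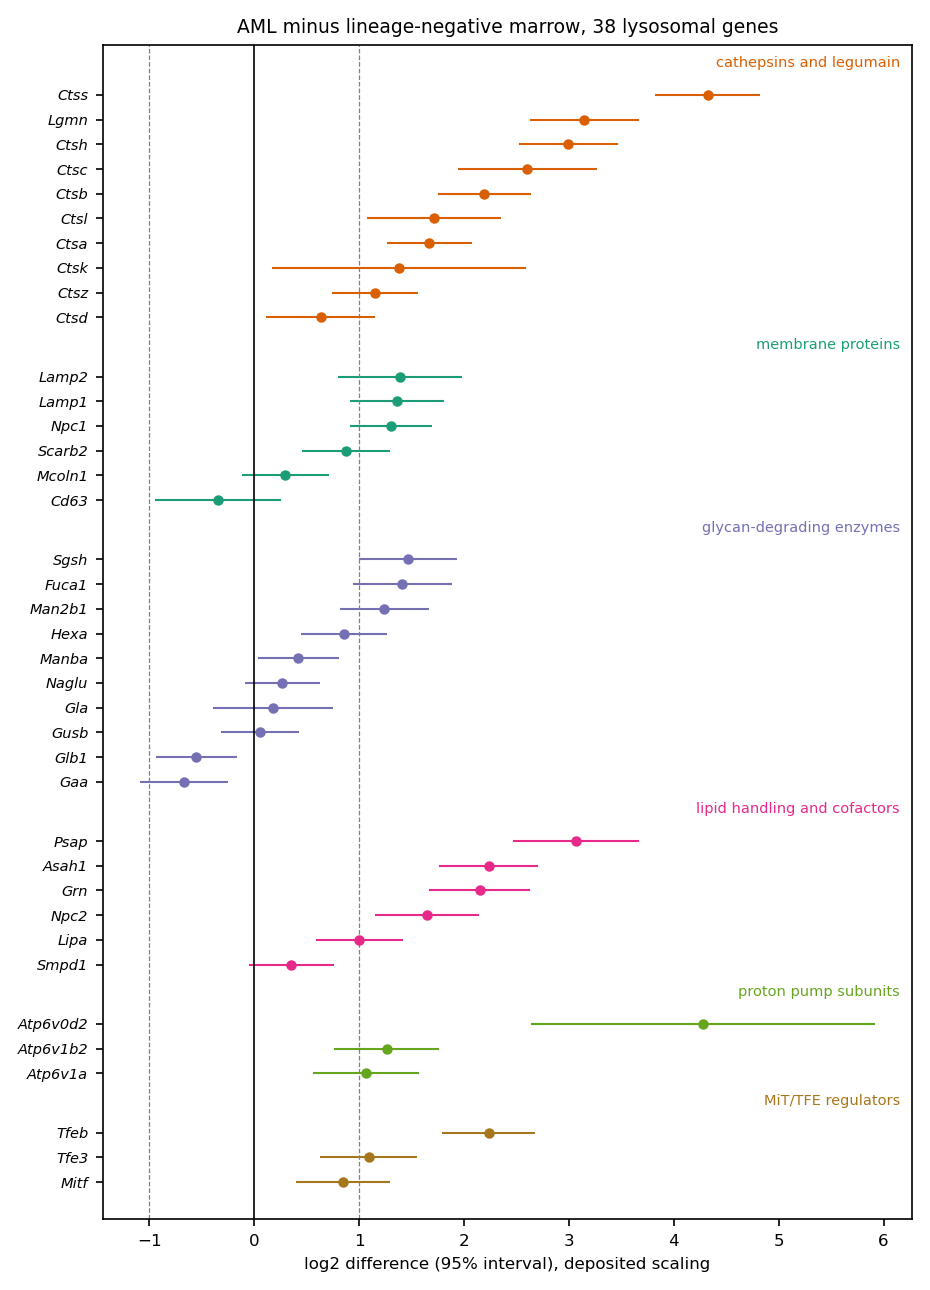
Points are log2 differences of AML minus lineage-negative marrow for the 38 genes with the deposited scaling, with 95% intervals from limma, grouped by role. Dashed lines mark a difference of 1. The proteases reach 4.32 for Ctss, while 7 of the 10 glycan-degrading enzymes lie under 1, and Gaa and Glb1 lie under 0.

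Of the 6 lipid enzymes, carriers and cofactors, 5 rose against lineage-negative marrow (all genes, 17.7%). Against whole marrow 5 were called higher as deposited (all genes, 27.3%) and 3 with TMM (all genes, 4.77%). Psap (ENSMUSG00000004207, chromosome 10, 60113449 to 60138376), prosaposin, is the precursor of the saposins that present sphingolipids to their hydrolases. It was the most abundant of the 38 genes per length in every group, at 37743 normalized counts per kilobase of exon in AML, 7958 in whole and 4604 in lineage-negative marrow. Ctss was next in AML at 12966 per kilobase, whereas it ranked 3 in whole and 7 in lineage-negative marrow. Psap had 68859 to 128295 with a median of 104275 normalized counts in AML, 11773, 29216, 23102 and 23257 in whole marrow and 18042, 13089, 8964 and 10434 in lineage-negative marrow. AML replicate 6 was the lowest AML library and still lay above every normal one. The log2 difference was 3.06 (SE 0.29, adjusted p = 4.82e-08) against lineage-negative marrow, 8.37-fold, and 2.30 (SE 0.29, adjusted p = 4.01e-06) against whole marrow, or 1.61 (SE 0.21, adjusted p = 1.62e-05) with TMM.

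Grn had 7011 to 11989.8 normalized counts in AML (median 10401). For Grn the normal libraries gave 1681, 3759.8, 3066 and 2995 in whole marrow and 2998, 2341, 1670.2 and 1759.5 in lineage-negative marrow. Grn encodes progranulin, the precursor of granulins, which binds prosaposin. It rose by 2.15 (SE 0.23, adjusted p = 3.1e-07) against lineage-negative marrow and by 1.78 (SE 0.23, adjusted p = 5.81e-06) against whole marrow, or 1.08 with TMM. Npc2 had 8286 to 15653 normalized counts in AML (median 12919.6). Against that stood 1552, 3795, 2802 and 2883 in whole marrow and 3829.5, 4666, 3376 and 3363 in lineage-negative marrow. Npc2, the soluble partner of Npc1 in cholesterol export, rose by 1.65 (SE 0.24, adjusted p = 1.11e-05) against lineage-negative marrow and by 2.17 (SE 0.24, adjusted p = 1e-06) against whole marrow, or 1.48 with TMM. Lineage-negative minus whole marrow gave 0.52 for Npc2 as deposited and −0.17 with TMM, neither called. AML libraries of Npc2 split into replicates 3 and 6, near 8286 and 8361, and the other 5, from 12074 upward. Asah1 had 3489.7 to 5034 normalized counts in AML (median 4614). The normal libraries held 775, 1783, 1561 and 1433 in whole marrow and 603, 1239, 942 and 961 in lineage-negative marrow. Asah1, acid ceramidase, rose by 2.23 (SE 0.23, adjusted p = 1.25e-07) against lineage-negative marrow. Against whole marrow the difference was 1.69, and 0.99 (SE 0.16, adjusted p = 8.64e-05) with TMM, where it missed the threshold of 1 with no overlap of the groups.

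Lipa had 1466 to 2852 normalized counts in AML (median 2332). Its normal values were 601, 1119, 936 and 907 in whole marrow and 1007, 1197, 992 and 1212 in lineage-negative marrow. Lipa, the acid lipase, differed by 1.00 (SE 0.20, adjusted p = 0.000378) from lineage-negative marrow, at the threshold itself. Without AML replicate 1, 2, 3 or 5, or lineage-negative replicate 1 or 3, it fell to between 0.94 and 0.99 and was not called. Against whole marrow Lipa differed by 1.34, and by 0.65 with TMM, not called. Smpd1, acid sphingomyelinase, had means of 777 ± 146 (SD, n = 7), 419 ± 110.1 (SD, n = 4) and 602 ± 65.5 (SD, n = 4) normalized counts in AML, whole and lineage-negative marrow. It differed by 0.35 (95% interval −0.05 to 0.76) from lineage-negative marrow. From whole marrow it differed by 0.91 (0.51 to 1.32) as deposited, not called but called without whole marrow replicate 2 at 1.04, and by 0.22 (−0.04 to 0.48) with TMM.

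Of the 3 proton pump subunits, Atp6v1a and Atp6v1b2 form the catalytic head and Atp6v0d2 is an isoform of the membrane sector known from macrophages and osteoclasts. Atp6v1b2 had 4022 to 7671 normalized counts in AML (median 4877). For Atp6v1b2 the normal libraries gave 1018, 2925, 2515 and 2277 in whole marrow and 2135, 2251, 1989 and 1868 in lineage-negative marrow. Atp6v1b2 was higher by 1.26 (SE 0.24, adjusted p = 0.000231) than in lineage-negative marrow and by 1.28 than in whole marrow (0.59 with TMM, and 0.95 without whole marrow replicate 1, neither called). Atp6v1a had 2361 to 4983 normalized counts in AML (median 3195). Against that stood 904, 2223, 2261 and 1834 in whole marrow and 1294, 1895, 1564 and 1521 in lineage-negative marrow. Atp6v1a rose by 1.06 (SE 0.24, adjusted p = 0.00126) against lineage-negative marrow. Its call was lost without AML replicate 1, at 0.96, and without lineage-negative replicate 1, at 0.97. Against whole marrow it differed by 0.93, not called as deposited, and was called without AML replicate 4 or whole marrow replicate 2 or 3, at 1.01 to 1.07. With TMM the difference of Atp6v1a was 0.24 (SE 0.17, adjusted p = 0.287). For both genes replicate 1 was the highest AML library.

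Atp6v0d2 varied most. AML replicates 1 to 7 had 81.4, 6.75, 20.8, 11.8, 110.4, 308 and 46.4 normalized counts, whole marrow 36.8, 77.7, 34.4 and 45.0 and lineage-negative marrow 3.63, 0, 4.41 and 0. Every lineage-negative library was below every AML library, and 2 of the 4 were at or under the floor. The log2 difference was 4.28 (SE 0.79, adjusted p = 0.000165), and it depends on the pseudocount, with 2.91 at a pseudocount of 5 and 6.03 at 0.1, both called. AML and whole marrow overlapped, with a difference of −0.11, or −0.79 with TMM, neither called. Replicate 6, the highest for Atp6v0d2, also had the highest AML values of the macrophage genes C1qa, at 1213 against 114 to 541 in the others, and Mertk, at 246. It had the lowest value of the monocyte gene Cx3cr1, at 247. The lists were not uniform in that library. The macrophage gene Cd163 had its lowest AML value there, at 45.7 against 207 to 480 in the others. The monocyte gene Ly6c2 had its highest, at 38422. The part of these markers in the value of Atp6v0d2 was not tested.

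**Figure D4:**
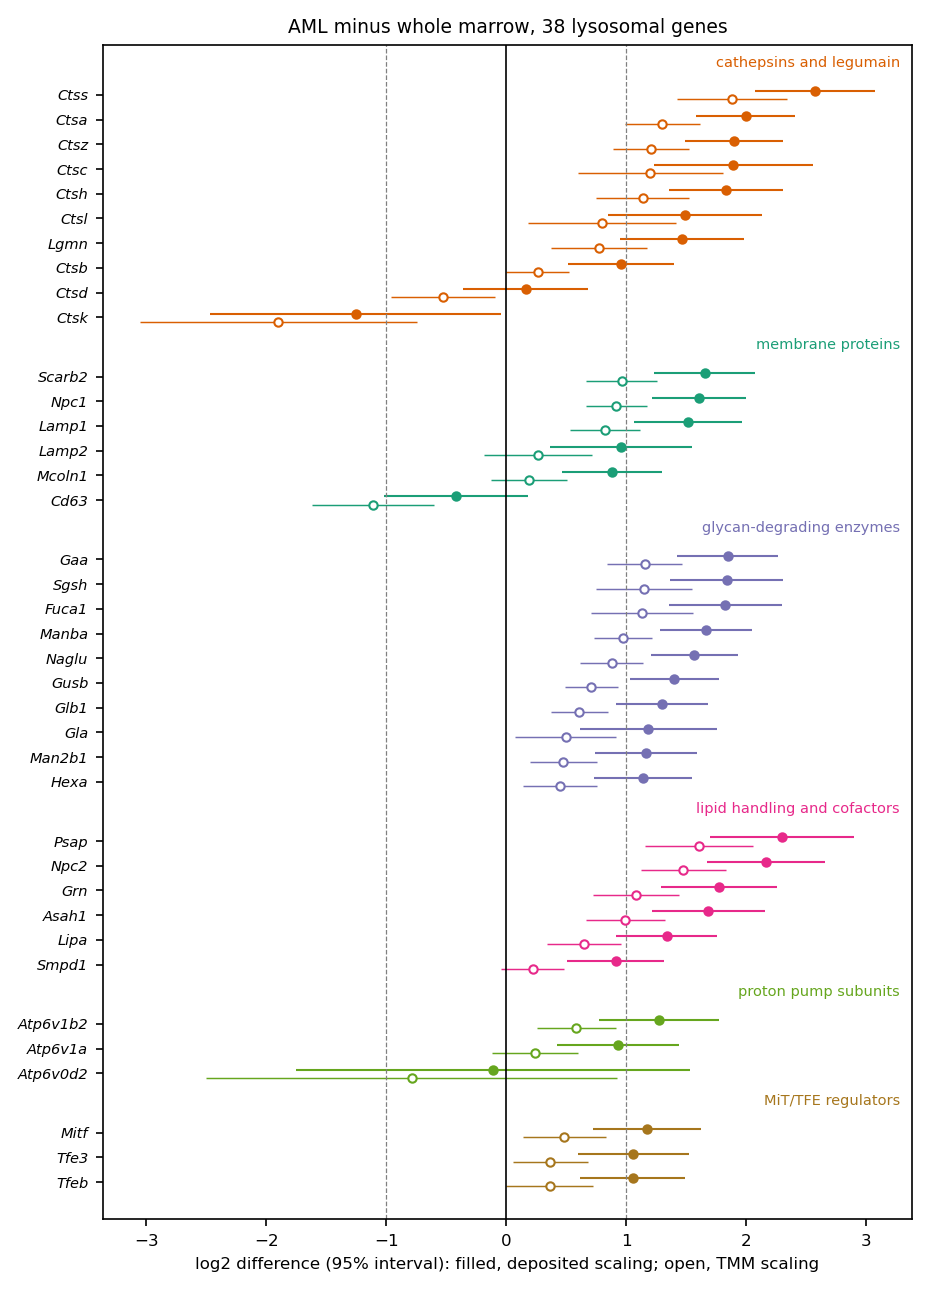
Points are log2 differences of AML minus whole marrow for the 38 genes with 95% intervals, filled for the deposited and open for TMM scaling, grouped by role. Dashed lines mark differences of 1 and −1. TMM moves each gene to the left by a similar amount, which leaves 11 genes above 1 and Ctsk and Cd63 below −1.

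The normal groups set marrow depleted by lineage markers beside unfractionated marrow, without leukaemia. In lineage-negative against whole marrow, 6 of the 38 were called higher and 7 lower with the deposited scaling (all genes, 33.1% and 17.2%), and 2 and 13 with TMM (all genes, 11.2% and 24.6%). Genes called with both scalings were Gaa and Glb1 upward, and Ctsb, Ctsh, Ctsk, Ctss, Lgmn, Atp6v0d2 and Tfeb downward. The log2 difference was −1.75 (SE 0.27, adjusted p = 1.81e-05) for Ctss, or −2.44 with TMM, and −1.68 (SE 0.28, adjusted p = 3.71e-05) for Lgmn, or −2.37. For Ctsb the values were −1.24 and −1.93, and for Ctsh −1.16 and −1.85. Without lineage-negative replicate 3 the deposited difference of Ctsh was −0.97, not called. Without lineage-negative replicate 2, which had Ctsk at 0, the difference of Ctsk went from −2.63 to −1.997, and without replicate 4 −3.22. Of the glycan-degrading enzymes, none was called lower with either scaling. Both comparisons with AML share the AML libraries, and each normal group enters 2 comparisons, so agreement between them is not independent.

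The 7 leukaemias were uneven in some of the 38 genes and close in others. The coefficient of variation over AML libraries had a median of 20.05%, against 27.5% in whole and 14.6% in lineage-negative marrow. In AML it ran from 10.8% for Glb1 and 11.2% for Gusb to 44.4% for Ctsc and 127% for Atp6v0d2. AML replicate 1 was the highest AML library for 14 of the 38 genes and replicate 6 the lowest for 17, with median log2 deviations from the AML mean of 0.20 and −0.29. In replicate 6, 7 genes were above their AML medians: Ctsc, Ctsd, Ctsz, Cd63, Gla, Atp6v1a and Atp6v0d2. Ctsc and Ctsd were there at 12240.0 and 11976 normalized counts, with AML medians of 6919 and 7264. Replicate 6 also had the lowest AML level of the monocyte gene Csf1r, at 4703 against 10391 to 13926 in the others, and the highest AML signal at the receptor genes. The monocyte list was mixed in that library. Ly6c2 had its highest AML level there, at 38422 against 10376 to 33971, and F13a1, at 29128, lay within the range of the others. Replicates 1 and 6 held the highest AML levels of the neutrophil gene Cxcr2, at 10236 and 9955 against 1442 to 4291. The part of these cell markers in the spread was not tested.

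A wider list held 67 other lysosomal genes found in the table, all of them tested. Against lineage-negative marrow 27 were called higher and 3 lower in AML (all genes, 17.7% and 12.5%), with a median log2 difference of 0.85 (26 and 3 with TMM). Against whole marrow 35 were higher and 3 lower (all genes, 27.3% and 11.3%), with a median of 1.01 against 0.67 for all genes. With TMM the counts were 11 and 4 (all genes, 4.77% and 16%), with a median of 0.32 against −0.01. Of those called with both scalings, the highest against lineage-negative marrow were Plbd1, a phospholipase B-like protein, at 6.54 (SE 0.33, adjusted p = 3.29e-11), and Slc11a1, a metal transporter of phagosomes, at 5.62 (SE 0.32, adjusted p = 9.13e-11). The lowest were Ctse, cathepsin E, at −2.21 (SE 0.25, adjusted p = 4.93e-07), and Hyal2, a hyaluronidase, at −1.79 (SE 0.31, adjusted p = 9e-05). Against whole marrow Scpep1, a serine carboxypeptidase, rose by 2.55 (SE 0.20, adjusted p = 2.14e-08), or by 1.86 with TMM. Ctse fell by 3.86 (SE 0.25, adjusted p = 1.82e-09), from 7597 normalized counts in whole marrow to 511 in AML, the opposite direction from Ctss. With TMM its log2 difference was −4.56. Rragd, a Rag GTPase of nutrient sensing, fell by 1.74 (SE 0.37, adjusted p = 0.000485) against whole marrow with the deposited scaling. Among 3 inhibitors of cysteine cathepsins, Cst3, cystatin C, rose by 2.21 (SE 0.25, adjusted p = 7.22e-07) against lineage-negative marrow. Against whole marrow Cst3 rose by 2.57 (SE 0.25, adjusted p = 3.44e-07), or by 1.88 with TMM. Cst7, cystatin F, differed from lineage-negative marrow by −1.09 (SE 0.27, adjusted p = 0.00285), lower in AML. The fall of Cst7 was not called without AML replicate 3 or lineage-negative replicate 2.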

How the data were processed

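The deposited values are a signal that the authors obtained by dividing estimated read counts per gene by DESeq2 size factors of the poscounts type, per the name of the table. Partek, STAR, DESeq2 and mm10 are named in the submitters' processing notes, with no versions or roles. RNA was extracted with TRIzol and libraries were made with a TruSeq stranded total RNA kit, per the labels' protocols. The strand used in counting is not given in the sources used here, and 11 of the 38 genes overlap another protein-coding gene in the table. Of 38066 identifiers shared with a GRCm38 annotation (GENCODE M21), 37557 have the same length but 861 the same start. Coordinates are therefore those of the table, without a build, apart from the promoters (RefSeq GRCm38.p6), and the annotation gave exonic lengths.

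In each library 83.9 to 88.5% of low values were whole multiples of 1 step, within 0.02 of a step, so whole reads were not recovered and no count test was used. Depth is the total divided by that step. Genes with at least 10 normalized counts in at least 4 libraries were kept, 18941 in all and each of the 38. Values entered as log2(value + 1) in 1 limma fit of 3 group means (limma 3.58.1, R 4.3.3, trended empirical Bayes, two-sided, Benjamini-Hochberg adjustment over all genes kept). Fold changes are on that scale, which understates changes of low genes. TMM scaling, without weights, was written in R and tested on simulated data. Tables and figures used Python 3.11.15 with pandas 2.3.3, numpy 2.4.6 and matplotlib 3.10.9.

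The 38 genes, lists and tests were chosen with earlier results of these data known. Values by library (in AML the lowest, median and highest) are given for the 3 regulators and for genes called in the same direction with both scalings in either comparison with AML. From the wider list, the 2 largest and 2 smallest differences called with both scalings are named per comparison with AML, without repeating a gene. 1 result of that rule is not reported here. Other members singled out, the stretches of promoter and the within-library ratios were chosen after their values were seen. Of 68 other lysosomal genes listed, 67 were found. No pair of libraries held identical values. The alternatives were other pseudocounts, filters, scalings, variance models and sample sets, a replicate block, subtraction of the receptor-gene mean, and leaving out libraries.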

Additional observations from a re-analysis of the deposited data

Results flagged for a closer look

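In 114 sets of 1 gene in 1 group, 10 held a library whose gap to the nearest other exceeded Dixon's 95% critical value, where chance gives about 1 in 20. Whole marrow replicate 1 accounted for 5, each time on the low side: Ctsb at 3587 (7504 to 8243 in the others), Scarb2 at 709 (1191 to 1223 in the others), Gaa at 218 (364 to 382 in the others), Gla at 75.4 (209.8 to 236 in the others) and Manba at 266 (447 to 468) normalized counts. That library also had the lowest total. Lineage-negative replicate 3 stood low for Ctsc, at 998 normalized counts against 1404 to 1437 in the other libraries of the group. AML replicate 1 stood high for Gusb, at 3691 normalized counts against 2705 to 3085 in the other libraries of the group. Fuca1 was low in AML replicate 5, at 1543 normalized counts against 2392 to 2999.8 in the other libraries of the group. Atp6v0d2 was high in AML replicate 6, at 308 normalized counts against 6.75 to 110.4 in the other libraries of the group. Atp6v1b2 was high in AML replicate 1, at 7671 normalized counts against 4022 to 5101 in the other libraries of the group.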

How the results depend on the processing

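Scaling changed the counts most. With quantile normalization 10 of the 38 genes were called higher and 1 lower in AML than in whole marrow, against 11 and 2 with TMM and 29 and 0 as deposited. Over all 18941 genes, 2474 and 2288 were called with quantile normalization. Against lineage-negative marrow it called 21 higher and 0 lower (all genes, 2714 and 2741), without Ctsz (0.97), Lipa (0.94) and Atp6v1a (0.93). In lineage-negative against whole marrow the counts were 2 and 12 with quantile normalization (all genes, 4133 and 3495), 2 and 13 with TMM, and 6 and 7 as deposited. TMM combined with the replicate block, and TMM without whole marrow replicate 1, both chosen after seeing the data, gave the same counts as TMM: 11 and 2 against whole marrow and 2 and 13 between the normal groups. Over all 18941 genes the block gave 1077 and 3037 against whole marrow, and 2145 and 4726 between the normal groups. Without whole marrow replicate 1 these were 887 and 2673, and 2102 and 4430. Only AML had replicates 5 to 7, so every fit with the block compared AML replicates 1 to 4 alone with normal marrow. With the block the lower genes were Cd63 and Atp6v0d2 (−1.85, adjusted p = 0.0309), not Ctsk. AML replicates 5 and 6, which held the highest values of Atp6v0d2, did not enter that difference. A fit of the 2 groups alone called Ctsk lower in AML than in whole marrow, 1 gene (all genes, 2088). Leaving out 1 library at a time gave 23 to 33 higher and 0 to 1 lower genes against whole marrow (all genes, 3165 to 5832 and 1237 to 2128). Against lineage-negative marrow it gave 21 to 25 and 0 (all genes, 3123 to 3404 and 2212 to 2486). Between the normal groups it gave 5 to 6 and 6 to 9 (all genes, 4909 to 6612 and 2295 to 3264). These fits tested 18101 to 18873 genes. Without AML replicates 5 and 6, which had fewer genes at 0, 30 and 25 genes were higher against whole and lineage-negative marrow (all genes, 5273 and 3388 of 18638). With the replicate block these were 30 and 23 (all genes, 5257 and 3366 of 18941), and Atp6v1a was not called against lineage-negative marrow (0.99). The numbers in the titles did not pair the libraries, whose deviations from the group means correlated at −0.29 to 0.17 between libraries of 1 number. No called difference of a gene changed sign in the alternatives run, and 19 differences that were not called did. Ctsk had no value with the filter on a mean of at least 50. Ctsk and, in lineage-negative marrow, Atp6v0d2 are limited by depth. The causes were not tested.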
